A study of Homo sapiens with 9 samples.

Results

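The 3 libraries described here are the non-target control (siNC) libraries of T1 cells, numbered 1 to 3, of 9 libraries in the series. They were taken by their label, and no measured value entered that rule. T1, also written GIST-T1, is an established human gastrointestinal stromal tumor (GIST) cell line that is sensitive to imatinib and carries the KIT allele del560-79 in exon 11, a deletion present in every library. The cells were transfected with a non-target siRNA, a short RNA duplex with no intended target, by a lipid reagent and were harvested 48 h later, so they are transfected controls and not untouched cells. No imatinib was given to them. PolyA RNA was sequenced in bulk in paired ends, and the values are counts of reads per gene. T1 is a single line, so the spread below is that between 3 libraries of 1 line, and no source states whether they came from separate cultures or days. The spread may therefore be technical.

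GIST is a mesenchymal tumor of the gut wall that arises from the lineage of the interstitial cells of Cajal, the pacemaker cells that set the rhythm of gut contraction. These cells depend on KIT, the receptor tyrosine kinase for stem cell factor, and on the transcription factor ETV1, and they carry the calcium-activated chloride channel ANO1, known in pathology as DOG1. FOXF1 is a forkhead factor of the gut mesenchyme that is known to act upstream of KIT and ETV1 in GIST.

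The libraries held 43579398, 38944314 and 49363002 counts, and 131886714 in all. Levels are given as CPM, which are counts scaled to a common total, after TMM scaling, and every ± is the SD over the 3 libraries. A gene was taken as expressed at 1 CPM or more in each library, which is a count of at least 44, 39 and 50 in libraries 1 to 3. Where all 3 libraries had no count, 3 counts over the group set the limit, 0.0227 CPM. Because long genes collect more counts, levels were compared between genes per length as TPM, in which counts are divided by the exon length of the gene. Ranks and classes given in CPM below are not corrected for length. Protein-coding genes that share most of their exon bases with another gene were often near 0 in this table. Of 10467 that share none, 52.8% were expressed, against 72.3% of those that share up to 20%, 62.7% of those that share 20 to 50%, 30.6% of those that share 50 to 80% and 2.33% of the 771 that share more, of which 582 had no count. A level at or near 0 is therefore uncertain where the overlap is large. The counts of genes at 0 or under the limit given below include such genes.

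Library 2 stood apart from the others by a small amount. Among 8870 protein-coding genes of 10 CPM or more, it was the library farthest from the mean of the 3 in 4884 (55.1%), and its deviation was higher for transcripts of higher GC content. Mean CPM were also computed without it. Over 589 listed genes of at least 1 CPM, leaving out library 2 moved the mean by a median of 2.02% and by 13.8% at most.

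Of 61209 gene symbols, 12963 were expressed (21.2%), and of 19938 protein-coding genes 11467 were (57.5%). The latter share is the background for every count of listed genes below. The expressed set further held 726 of 18773 long noncoding RNA genes and 688 of 14959 pseudogenes. Among protein-coding genes, 76 reached 1000 CPM, 2290 lay between 100 and 1000 CPM, 6504 between 10 and 100, and 2739 between 1 and 10, while 3971 had no count in any library. The counts were spread over many genes. The 1000 most abundant genes took 51.5% ± 0.236 of all counts, the 100 most abundant 17.7% ± 0.251, and the single most abundant 1.39% ± 0.0757. Counted per length, the 100 genes highest by TPM took 25.1% of the total.

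The most abundant transcript was ACTB, cytoplasmic β-actin, at 13022, 14755 and 13805 CPM in libraries 1 to 3. ACTG1, the other cytoplasmic actin, followed at 6635, 7237 and 6615 CPM, and EEF1A1, a translation elongation factor, at 5784, 6049 and 5687 CPM. Behind these housekeeping genes came products that are particular to fewer cell types. IGF2, a fetal growth factor expressed from the paternal allele, came next by CPM with 4844, 5456 and 5343 CPM, and was followed by PLAT, the tissue plasminogen activator, with 4704, 4989 and 4791 CPM. IGF2 shares 44.4% of its exon bases with other genes, so its level is uncertain. THBS1, the matricellular protein thrombospondin 1, stood at 3499 ± 71.0 CPM and COL3A1, the chain of type III collagen, at 3337 ± 147 CPM. Among the 25 protein-coding genes with the most counts, FBN2 (fibrillin 2, 2142 ± 93.8 CPM) and FLNA (filamin A, 2635 ± 79.8 CPM) are long genes that ranked lower per length.

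Ranked per length, 11 of these 25 genes remained among the 25 highest. ACTB was again first with 12784 ± 595 TPM, followed by the small actin-binding peptide TMSB10 (11638 ± 146 TPM), the mitochondrial MT-ND3 (10791 ± 457 TPM), the ferritin light chain FTL (8076 ± 302 TPM), ACTG1 (6848 ± 253 TPM) and TMSB4X (6720 ± 120 TPM). The ranges of ACTG1 and TMSB4X overlapped between libraries, so their order is not settled. XCL1, the chemokine lymphotactin known from activated T and NK cells, was the tenth gene by TPM, with 4580, 4640 and 4499 TPM. Mitochondrially encoded genes took 0.925% ± 0.0726 of the counts and 5.11% ± 0.288 of the TPM, and cytosolic ribosomal protein genes 4.85% ± 0.159 of the counts.

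**Figure D1:**
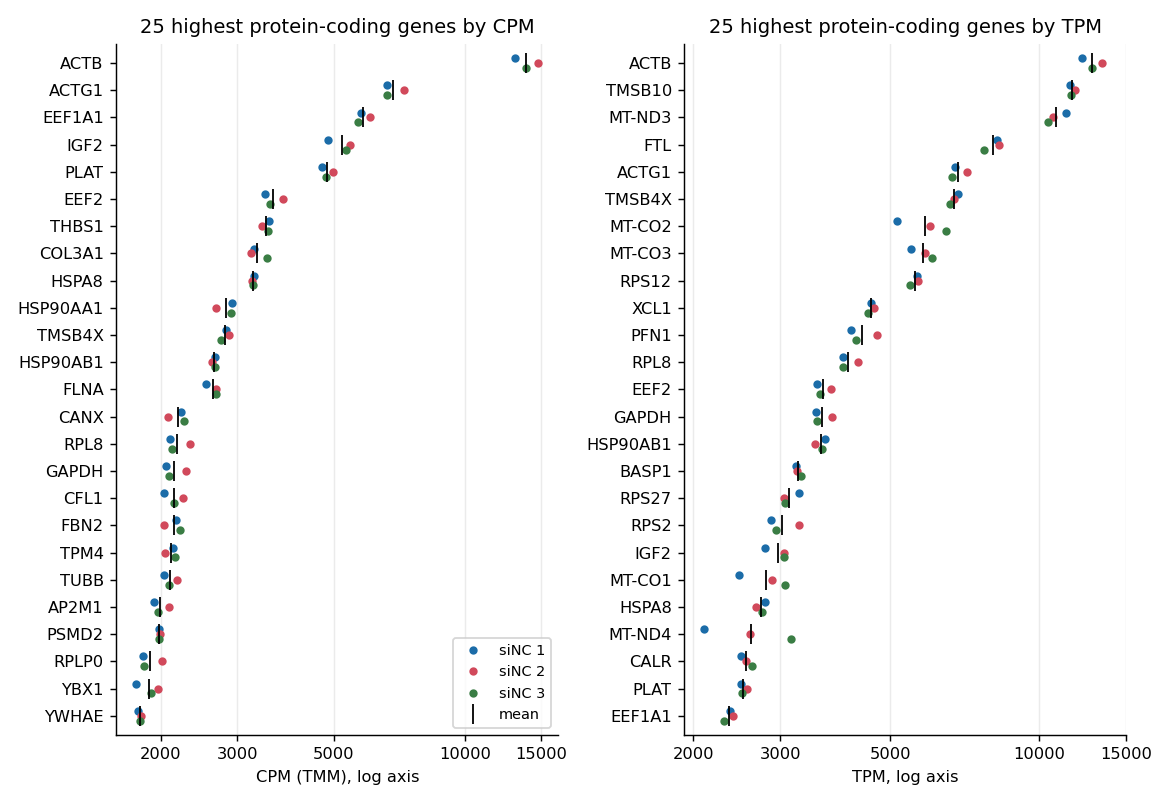
The 25 protein-coding genes with the highest mean CPM (left) and the highest mean TPM (right), 1 point per siNC library and a black bar at the mean, on log axes. ACTB led both panels, while TMSB10, FTL, XCL1 and the mitochondrial genes entered only when counts were divided by length, and MT-ND4 ran from 2105 to 3149 TPM between libraries.

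Among genes of other types, the 16S mitochondrial ribosomal RNA MT-RNR2 (1688 ± 13.1 CPM) and H19 were the highest. H19, the imprinted long noncoding RNA beside IGF2, stood at 1228, 1373 and 1358 CPM. The ratio of IGF2 to H19 per length was 1.91, 1.93 and 1.91 in libraries 1 to 3. FENDRR, the long noncoding RNA that is divergently transcribed from the start of FOXF1, stood at 339, 353 and 355 CPM. Of the 10 highest genes of other types, EEF1A1P5 (312 ± 28.4 CPM), RPS2P5 (284 ± 16.3 CPM) and RPL13P12 (196 ± 26.1 CPM) are processed pseudogenes of abundant genes, and reads may be shared between such copies and their parents.

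The markers of the line were all expressed, each with little spread. KIT, at chr4:54657267-54740783 of GRCh38, stood at 1336, 1293 and 1357 CPM. ANO1, at chr11:69985907-70189530, stood at 381, 392 and 400.3 CPM. ETV1, at chr7:13891229-13991425, stood at 247, 248 and 261 CPM. FOXF1, at chr16:86510527-86515422, stood at 319.6, 342 and 330.3 CPM. The SD was 2.47% of the mean for KIT, 2.50% for ANO1, 3.06% for ETV1 and 3.38% for FOXF1. Per length, the order was KIT (477 ± 18.2 TPM), FOXF1 (382 ± 6.84 TPM), ANO1 (254 ± 5.95 TPM) and ETV1 (107 ± 3.82 TPM), and no neighbours in that order overlapped.

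Of 18 genes of GIST and Cajal cell identity, 17 were expressed (94.4%), and 15 of them exceeded 10 CPM. CD34, a surface sialomucin that most GISTs carry, stood at 1279, 1322 and 1337 CPM, or 579 ± 10.9 TPM, and its range lay above that of KIT. HAND1, a basic helix-loop-helix factor, reached 420, 473 and 447 TPM, which overlapped the range of KIT. It exceeded its paralog HAND2 (46.5 ± 2.02 TPM) by 9.60 ± 0.168 times. OSR1, a zinc finger factor of the mesoderm, stood at 225 ± 10.5 TPM and the orphan receptor GPR20, whose transcript is a known feature of GIST, at 113 ± 5.64 TPM, which overlapped ETV1. BARX1, the homeobox factor of the stomach mesenchyme, stood at 72.0, 84.0 and 73.3 TPM. PDGFRA, the receptor kinase whose gene lies beside KIT, reached 56.8 ± 3.01 TPM, and KITLG, which encodes the KIT ligand stem cell factor, 57.4 ± 3.91 TPM. Their ranges overlapped, and KIT exceeded PDGFRA by 8.40 ± 0.245 times and KITLG by 8.32 ± 0.357 times. PRKCQ, protein kinase C theta, was low at 15.8 ± 0.339 TPM. NKX2-3, a homeobox factor of the midgut mesenchyme, was the only member under the limit, at 0.455, 0.466 and 0.406 CPM.

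Of 22 ion channel, receptor and gap junction genes linked to Cajal cells, 16 were expressed (72.7%). ANO1 was the highest, and the endothelin receptor EDNRA (121 ± 3.82 TPM) and the chloride cotransporter SLC12A2 (26.7 TPM) followed. The T-type calcium channels CACNA1H (17.6 ± 1.11 TPM) and CACNA1G (3.78 TPM) were expressed, whereas the connexin gene GJA1 lay at 0.227, 0.181 and 0.162 CPM, and EDNRB had no count.

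The stretch around the start of a gene (250 bases before and 50 after it) was read from RefSeq for the genes that have an entry. Those of KIT, ANO1 and HAND1 are shown as genes of this lineage that were high, and those of ALB and PTPRC, defining genes of hepatocytes and leukocytes, as genes that had no count or 1 count. CG dinucleotides are in capitals, and the sequences are from GRCh38.p14, 5′ to 3′ on the strand of the gene, from chr4:54657707-54658006 (plus strand) for KIT, chr11:69985657-69985956 (plus) for ANO1, chr5:154478178-154478477 (minus) for HAND1, chr4:73404037-73404336 (plus) for ALB and chr1:198638790-198639089 (plus) for PTPRC.
KIT: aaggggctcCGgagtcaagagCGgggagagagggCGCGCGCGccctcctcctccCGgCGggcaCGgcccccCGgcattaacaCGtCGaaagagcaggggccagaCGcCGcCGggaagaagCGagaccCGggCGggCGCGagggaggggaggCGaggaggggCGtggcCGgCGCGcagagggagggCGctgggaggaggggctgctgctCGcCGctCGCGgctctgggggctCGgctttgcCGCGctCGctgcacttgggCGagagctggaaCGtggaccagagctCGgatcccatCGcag
ANO1: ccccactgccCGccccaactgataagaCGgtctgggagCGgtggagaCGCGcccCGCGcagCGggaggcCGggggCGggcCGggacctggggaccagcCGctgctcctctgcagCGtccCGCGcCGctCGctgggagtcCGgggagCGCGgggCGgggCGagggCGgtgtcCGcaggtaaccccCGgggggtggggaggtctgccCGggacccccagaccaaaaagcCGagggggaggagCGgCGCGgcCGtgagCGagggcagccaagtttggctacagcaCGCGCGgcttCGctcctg
HAND1: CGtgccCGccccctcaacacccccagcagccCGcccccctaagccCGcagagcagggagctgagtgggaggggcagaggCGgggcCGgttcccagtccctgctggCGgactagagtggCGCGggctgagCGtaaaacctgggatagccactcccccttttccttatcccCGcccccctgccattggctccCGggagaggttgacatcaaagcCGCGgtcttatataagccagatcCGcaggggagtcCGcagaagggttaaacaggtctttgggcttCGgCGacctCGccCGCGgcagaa
ALB: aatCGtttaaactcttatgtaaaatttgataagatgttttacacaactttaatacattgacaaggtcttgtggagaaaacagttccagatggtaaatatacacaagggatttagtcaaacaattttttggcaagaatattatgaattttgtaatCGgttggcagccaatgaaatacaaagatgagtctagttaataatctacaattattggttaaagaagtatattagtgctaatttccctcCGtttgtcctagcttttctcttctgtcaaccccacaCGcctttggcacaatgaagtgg
PTPRC: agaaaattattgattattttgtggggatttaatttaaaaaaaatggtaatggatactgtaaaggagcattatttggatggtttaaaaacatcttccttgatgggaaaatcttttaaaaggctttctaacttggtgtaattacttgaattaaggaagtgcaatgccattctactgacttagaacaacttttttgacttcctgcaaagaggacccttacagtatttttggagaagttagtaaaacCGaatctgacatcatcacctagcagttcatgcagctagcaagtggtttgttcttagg
KIT held 38 CG dinucleotides in its 300 bases, ANO1 36 and HAND1 21, against 4 in ALB and 1 in PTPRC. The GC content was 74.3% for KIT, 76.0% for ANO1, 66.0% for HAND1, 33.3% for ALB and 33.7% for PTPRC.

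The same contrast held across the 15272 protein-coding genes with a RefSeq entry. The median number of CG dinucleotides was 5 for 2631 genes with no count, 9 for 1747 genes above 0 and under 0.1 CPM, 18 for 1375 genes from 0.1 to 1 CPM, 25 for 2182 genes from 1 to 10 CPM, and 26.5 to 28 in the 3 classes above. The share of promoters whose CG dinucleotides were at least 0.6 of the number that their C and G content predicts was 22.6% in the genes with no count and 89.4% in the 1886 genes from 100 to 1000 CPM. The letters TATAAA, searched on the strand of the gene from 40 to 15 bases before the start, were found in 9.58% of the promoters of genes with no count, in 1.00% of those of 10 to 100 CPM, and in 10.0% (6 of 60) of those of 1000 CPM or more, against 3.69% of all. None of the 5 promoters shown holds these letters there. Only the exact letters were searched, so promoters with a near variant of them were not counted. These are properties of the reference sequence and not of the cells, and no mark or binding was measured. Each stretch is that of the first listed start of a gene, and counts per gene do not show which start the cells used.

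**Figure D2:**
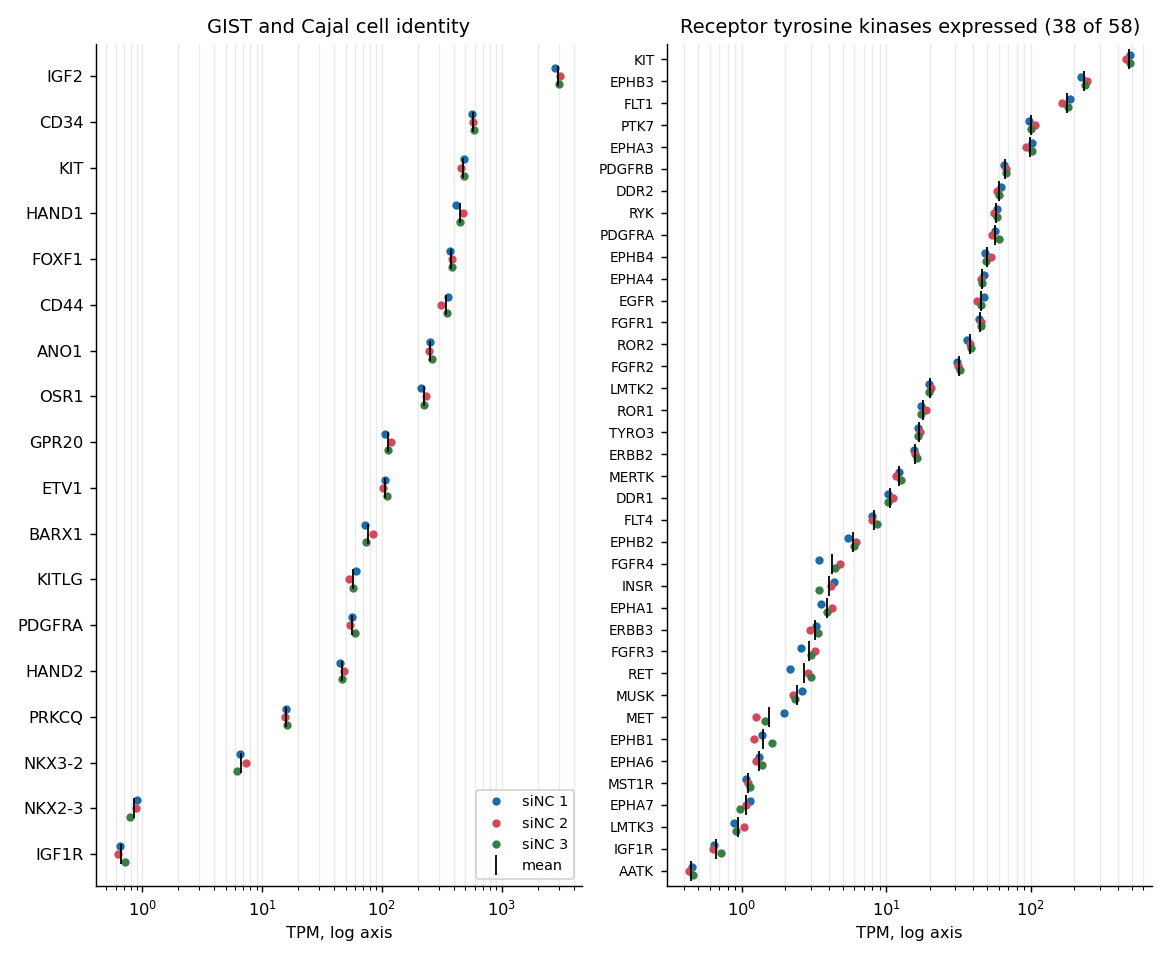
TPM of 18 GIST and Cajal cell identity genes (left) and of the 38 expressed receptor tyrosine kinases (right), 1 point per siNC library and a black bar at the mean, on log axes. IGF2 led the left panel, CD34, KIT and HAND1 lay between 420 and 591 TPM, and KIT was the highest receptor tyrosine kinase in each library.

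All 4 subunits of succinate dehydrogenase, whose loss marks a separate class of GIST, were expressed. SDHC stood at 299 ± 2.04 TPM, SDHB at 238 ± 6.63 TPM (the order of these 2 turned with the length used), SDHD at 98.3 ± 1.58 TPM and SDHA at 16.5 ± 0.942 TPM. SDHA has near-identical pseudogenes and shares 21.7% of its exon bases, so its level is uncertain. Of 12 genes linked to GIST progression, 10 were expressed (83.3%). CDKN2A, which encodes the cell cycle inhibitors p16 and p14ARF, stood at 156, 184 and 159 CPM, and the retinoblastoma gene RB1 at 164, 150 and 164 CPM. MAX, the partner of MYC, stood at 35.3 CPM. DMD, the dystrophin gene, had no count in any library and none of its exons overlap another gene.

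Of 271 transcription factor genes in 20 families, 135 were expressed (49.8%), a share below that of protein-coding genes as a whole. HAND1 was the highest of them per length, and FOXF1 led its family of 51 forkhead genes, of which 23 were expressed. The next forkhead genes were FOXM1, a factor of dividing cells (138 ± 6.86 TPM), and FOXP4 (76.0 ± 5.19 TPM). FOXF1 exceeded its divergent partner FENDRR by 1.85 ± 0.0384 times per length. FOXC2 and FOXL1, the forkhead genes next to FOXF1 on chromosome 16, lay at 8.08 ± 0.569 and 13.1 ± 0.390 TPM.

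Among 28 ETS genes, 18 were expressed. Per length, ETV1 stood behind ETV5 (255 ± 4.42 TPM), ETS1 (211 ± 8.82 TPM), ELK1 (159.9 ± 4.94 TPM) and GABPA (139.9 ± 12.7 TPM). ETV5 exceeded ETV1 by 2.38 ± 0.0437 times, while ERG, an ETS factor of endothelial cells, was 23.1 ± 1.37 times lower than ETV1. The GATA family, which sets gut and blood lineages, was low, with GATA4 at 13.9 ± 0.493 TPM, GATA2 at 8.10 ± 0.540 TPM and GATA6 at 6.34 ± 0.0648 TPM. TBX2 (19.7 ± 1.20 TPM), TBX3 (18.2 ± 1.27 TPM), TBX5 (17.01 ± 0.942 TPM) and TBX15 (13.7 ± 0.934 TPM) led the T-box family. The families with the smallest share of expressed genes were POU (2 of 16 expressed), NKX (3 of 14) and PAX (2 of 9), and the highest PAX gene, PAX5, lay at 0.599 TPM. SOX4 (75.4 ± 1.76 TPM), SOX12 (40.9 ± 2.19 TPM) and SOX11 (39.5 ± 0.727 TPM) led the SOX family. The HOX cofactor PBX2 (77.7 ± 0.873 TPM) was also among the family leaders. All 4 TEAD genes, which encode the DNA-binding partners of YAP, were expressed, with TEAD2 at 164 ± 3.52 TPM.

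HOX genes mark position along the body axis, with high paralog numbers toward the posterior end. Of 39 HOX genes, 18 were expressed. The summed level was 52.1 TPM over paralog groups 1 to 4 (5 of 12 genes expressed), 105 TPM over groups 5 to 8 (4 of 11) and 356 TPM over groups 9 to 13 (9 of 16). HOXA11 alone held 151, 141 and 149.9 TPM, and was followed by HOXC10 (63.5, 65.1 and 64.8 TPM), HOXB13 (55.7, 64.2 and 59.3 TPM) and HOXD8 (50.3, 48.8 and 51.1 TPM). HOXC10 and HOXB13 overlapped between libraries, whereas HOXA11 lay above every other HOX gene. By cluster, the sums were 169 TPM for HOXA, 129 TPM for HOXB, 123 TPM for HOXC and 91.7 TPM for HOXD, so no cluster was silent.

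**Figure D3:**
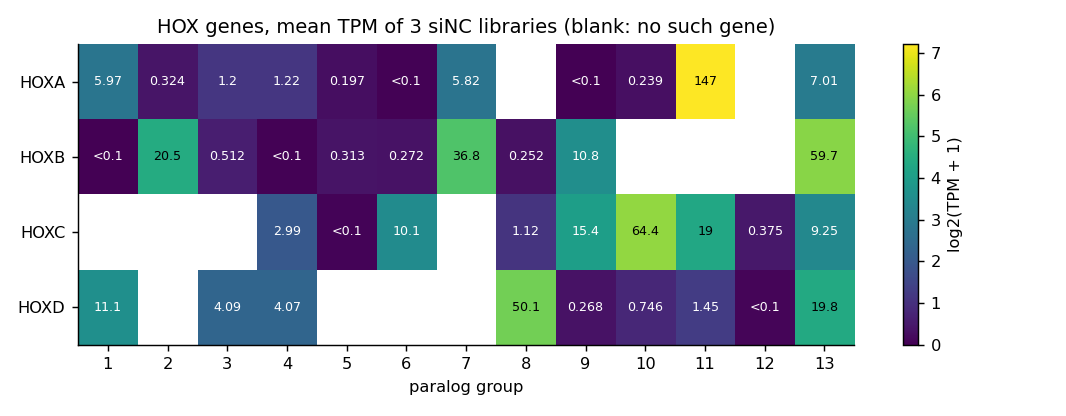
Mean TPM of the HOX genes over the 3 siNC libraries, by cluster (rows) and paralog group (columns 1 to 13), printed in each cell and coloured by log2(TPM + 1), with blank cells where no such gene exists. HOXA11 is the brightest cell at 147 TPM, followed by HOXC10 at 64.4 TPM and HOXB13 at 59.7 TPM.

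ESRRA, which encodes the orphan nuclear receptor ERRα, was the only 1 of 8 estrogen and estrogen-related receptor genes that was expressed. It stood at 41.4, 45.4 and 41.8 CPM, or 56.2 ± 2.02 TPM. The related ESRRB and ESRRG lay at 0.0240 and 0.0135 CPM, the estrogen receptor gene ESR2 at 0.108 CPM and GPER1 at 0.249 CPM. ESR1 and PGR, the genes of estrogen receptor α and the progesterone receptor, had no count. Among all 48 nuclear receptors, 27 were expressed (56.2%), and ESRRA was the third per length after NR2F6 (192 ± 10.3 TPM) and RXRB (64.7 ± 3.16 TPM), with a range that overlapped that of PPARD (53.5 ± 3.04 TPM). Coactivators and corepressors of ERR were expressed in 8 of 9 cases. NRIP1, a corepressor, stood at 47.4 ± 2.99 TPM and PPRC1, a coactivator of the PGC-1 family, at 46.0 ± 1.93 TPM, with overlapping ranges. PPARGC1B, the gene of PGC-1β, was lower at 2.92 ± 0.292 TPM (9.25 ± 1.00 CPM). PPARGC1A, that of PGC-1α, was under the limit at 0.534 ± 0.172 CPM.

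Receptor tyrosine kinases pass signals of growth factors into the cell, and 38 of 58 were expressed (65.5%). KIT was the highest, by 2.04 ± 0.166 times over EPHB3, an ephrin receptor, which stood at 223, 245 and 236 TPM. FLT1, a receptor of vascular endothelial growth factor, reached 187, 163 and 181 TPM. PTK7 (101 ± 4.74 TPM) and EPHA3 (99.1 ± 6.05 TPM) overlapped. Below them came PDGFRB (66.6 ± 1.06 TPM), the collagen receptor DDR2 (60.1 ± 1.93 TPM), EGFR (45.1 ± 2.54 TPM) and FGFR1 (44.7 ± 0.550 TPM). AXL was under the limit at 0.610 CPM, KDR, the gene next to KIT, lay at 0.0537 ± 0.0281 CPM, and ERBB4 and LTK had no count. Of the 8 kinases that imatinib is known to bind, 7 were expressed, of which ABL1 stood at 78.8 ± 0.762 TPM and ABL2 at 14.5 ± 1.09 TPM, while CSF1R lay at 0.0305 CPM.

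IGF2 was accompanied by little IGF1R, a receptor through which it signals, though not the only one. IGF1R stood at 2.18, 2.20 and 2.43 CPM, or 0.663 ± 0.0435 TPM. The insulin receptor gene INSR, whose product can also bind IGF2, was higher at 3.98 ± 0.486 TPM. IGF2R, which carries IGF2 to the lysosome, stood at 590.2, 578 and 613 CPM, and exceeded IGF1R by 161 ± 5.73 times per length.

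Downstream of KIT, 29 of 30 transducer genes were expressed (96.7%). The adaptors SHC1 (377 ± 10.5 TPM) and GRB2 (226 ± 3.69 TPM) and the kinase MAPK3 (161 ± 7.80 TPM), which is ERK1, were the highest. The kinase AKT1 reached 118 ± 5.29 TPM. Of 12 genes that ERK is known to induce, some of which dampen it in turn, 11 were expressed. They were led by SPRY2 (342 ± 8.28 TPM), the ETS factor ETV5, SPRY4 (223 ± 3.25 TPM) and DUSP6, an ERK phosphatase (156 ± 3.49 TPM).

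Receptors of the TGFβ family were expressed in 12 of 14 cases, with the coreceptor ENG (endoglin) at 720.3, 769 and 769.6 TPM and TGFBR2 at 186 ± 8.63 TPM. All SMAD genes but 1 of 8 were expressed. The exception, SMAD4, is the shared partner of the pathway and lay at 0.159 ± 0.0883 CPM, while SMAD5 reached 103 ± 5.71 TPM. Of 18 genes of Wnt receptors, coreceptors and their regulators at the membrane, 16 were expressed, with LRP5 at 178 ± 7.28 TPM and FZD8 at 151 ± 7.07 TPM. Of 22 core Wnt genes, 19 were, with the secreted inhibitor SFRP1 at 532 ± 18.98 TPM, DVL3 at 341 ± 11.98 TPM and CTNNB1, the gene of β-catenin, at 309 ± 4.58 TPM. The inhibitor DKK1 had no count. For Hedgehog, the transducer SMO reached 169 ± 7.44 TPM and the factors GLI3 and GLI2 31.0 and 7.81 TPM, while the ligands SHH, IHH and DHH lay at or under 0.0172 CPM. Of 9 Notch receptors and ligands, 7 were expressed, led by JAG1 (43.6 ± 1.84 TPM) and NOTCH2 (35.9 ± 1.01 TPM), whose ranges overlapped.

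Among 32 cytokine receptors, 27 were expressed (84.4%), led by TNFRSF12A, the receptor of TWEAK (513, 536 and 501 TPM), IL13RA1 (229.8 ± 14.7 TPM), TNFRSF1A (185 ± 4.94 TPM) and the shared subunit IL6ST (171 ± 11.7 TPM). Genes in a list of cytokines and chemokines, which leaves out XCL1, were expressed in 7 of 24 cases. TNFSF10, which encodes TRAIL, was the highest in that list at 265 ± 9.42 TPM, followed by CSF1 (71.8 ± 1.55 TPM). Growth factor genes were expressed in 29 of 43 cases. Behind IGF2 came BMP4 (351 ± 6.55 TPM), GDF15 (151 ± 3.19 TPM), BMP5 (128 ± 10.2 TPM), TGFB1 (119 ± 7.17 TPM) and WNT5A (115 ± 7.05 TPM), and the ranges of the last 3 overlapped from 1 to the next. The chemokine XCL1, described above, has a near-identical copy, XCL2, which stood at 48.2, 38.3 and 44.7 CPM, so that reads may be shared between them. Their receptor XCR1 had a single count.

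Integrins, the receptors by which cells hold the matrix, were expressed in 15 of 25 cases. ITGA5, which pairs with ITGB1 to bind fibronectin, was the highest at 263 ± 5.34 TPM, above ITGB5 (132 ± 4.78 TPM), ITGA4 (83.4 ± 6.47 TPM) and ITGB1 (55.6 ± 3.27 TPM). Of 11 cadherins, CDH11, a cadherin of mesenchymal cells, was the only 1 expressed, at 662, 653 and 673 CPM. The epithelial CDH1 lay at 0.359 ± 0.0741 CPM and the neural CDH2 at 0.378 ± 0.106 CPM.

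Genes of the extracellular matrix were uneven, with a few very high members in each list. The 44 collagen genes took 0.502% ± 0.0247 of all counts, and 22 of them were expressed. COL3A1, at 3277, 3229.5 and 3505 CPM, took most of that share. COL1A1, the chain that forms most type I collagen, stood at 16.6, 17.2 and 16.7 CPM, and its partner chain COL1A2 had 10, 13 and 8 counts. Per length, COL3A1 exceeded COL1A1 by 265 ± 14.8 times. Of 11 fibrillar collagens, 6 were expressed, and COL5A2 (57.97 ± 4.28 TPM) and COL5A1 (40.6 ± 3.38 TPM), the chains of type V, followed COL3A1. COL2A1 and COL11A1, the chains of cartilage, had no count. Of 33 other collagens, 16 were expressed, with COL6A1 at 354 ± 25.1 TPM and the basement membrane chain COL4A1 at 76.7 ± 6.12 TPM. COL6A3, the third chain of type VI collagen, lay at 1.90 CPM, and COL6A1 exceeded it by 996 ± 153 times per length.

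Genes of elastic fibers and matricellular proteins were expressed in 24 of 35 cases (68.6%). CCN2, a target of YAP signaling, led with 1931, 1736 and 1817 TPM, and THBS1 (1554 ± 55.7 TPM) and EMILIN1 (1543 ± 62.1 TPM), whose ranges overlapped, and MFAP4 (661 ± 40.9 TPM) followed. The fibrillin genes FBN2 and FBN1 stood at 488 ± 28.0 and 196 ± 8.22 TPM, elastin (ELN) at 465 ± 22.0 TPM and fibronectin (FN1) at 85.0 ± 7.45 TPM. Of 24 proteoglycans, 18 were expressed. Lumican (LUM) was the highest at 1603, 1498 and 1619 TPM, and syndecan 2 (SDC2, 498 ± 27.0 TPM), GPC4 (478 ± 17.997 TPM) and SDC3 (456 ± 19.7 TPM) formed a group whose neighbours overlapped. In the basement membrane, the laminin chains LAMC1 (239 ± 8.16 TPM) and LAMB1 (196 ± 8.97 TPM) and the linker NID1 (215 ± 8.08 TPM) were high. Laminin α chains were lower, since LAMB1 exceeded LAMA5, the highest α chain, by 9.85 ± 0.916 times.

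Collagen folding and crosslinking genes were expressed in 21 of 24 cases (87.5%). SERPINH1, the collagen chaperone HSP47, reached 1148 ± 50.0 TPM, PCOLCE2 347 ± 7.18 TPM, P4HB 329 ± 13.5 TPM and P4HA1 273 ± 15.6 TPM. The crosslinking enzyme LOX lay under the limit at 0.723 CPM. Among matrix proteases and their inhibitors, 22 of 32 were expressed. PLAT exceeded the others with 2497, 2565 and 2514 TPM, followed by the inhibitors TIMP1 (822 ± 4.25 TPM) and TIMP3 (279.6 ± 9.46 TPM) and the gelatinase MMP2 (265 ± 19.95 TPM). MMP14, a membrane protease, lay at 0.0381 CPM.

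Genes of the dividing cell were expressed throughout. All 21 proliferation genes were expressed, among them PCNA (656 ± 9.41 TPM), MCM7 (607 ± 17.3 TPM) and CCNB1 (427 ± 5.30 TPM). All 15 G1 cyclin, CDK and inhibitor genes were too, with CCNE1 at 401 ± 8.16 TPM, CCND2 at 336 ± 2.75 TPM, CDK4 at 328 ± 5.68 TPM and CCND3 at 308 ± 8.46 TPM. The leader of the Wnt core, laminin, proliferation and G1 lists changed when the longest transcript was taken as the length, to CTNNB1, LAMB1, MCM7 and CCND3. Glycolytic genes were expressed in 19 of 19 cases, led by GAPDH (3636 ± 154 TPM), TPI1 (1302 ± 40.4 TPM) and ENO1 (1061 ± 25.6 TPM). Survival and death genes were expressed in 13 of 16 cases, with MCL1 at 146 ± 6.05 TPM, BCL2L1 at 113 ± 2.89 TPM and BCL2 at 16.4 ± 0.567 TPM. Of 26 cytoskeletal genes, 25 were expressed, and MYL9, a regulatory myosin light chain, had no count and shares no exon bases with another gene. All 14 Hippo genes were expressed, with TEAD2, MOB1A (151 ± 8.28 TPM), LATS2 (101 ± 3.62 TPM), WWTR1 (75.9 ± 5.62 TPM) and YAP1 (59.0 ± 1.99 TPM). Stress genes were expressed in 14 of 16 cases, led by the chaperones HSPA8 (2738 ± 57.9 TPM) and HSP90AA1 (2259 ± 141 TPM).

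Genes that define other cell types were mostly under the limit or without a count. In bulk RNA, a few cells with a transcript and little of it in every cell cannot be told apart. Over 17 lists of such markers with 150 distinct genes, 36 were expressed (24.0%, against 57.5% of protein-coding genes), 64 were under the limit and 50 had no count. None was expressed of 8 hepatocyte, 10 leukocyte, 8 erythroid and megakaryocytic, 7 cardiac muscle, and 8 pluripotent and germ cell genes. ALB had no count, PTPRC, the pan-leukocyte CD45, had 1 count, and the summed level of the 10 leukocyte genes was 0.933, 0.854 and 0.953 CPM. Mast cells also depend on KIT, but of their 8 markers TPSAB1 had a single count and CPA3, HDC, CMA1, MS4A2, FCER1A and SIGLEC6 had none, while the remaining gene was GATA2.

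The list of 18 epithelial genes had 4 expressed members. KRT18, a simple keratin, stood at 308, 299 and 298 CPM, and its usual partner KRT8 at 11.5 ± 0.779 CPM. CDX2, an intestinal homeobox factor, lay at 10.5 ± 1.15 CPM and MUC1 at 2.94 ± 0.637 CPM. EPCAM lay at 0.178 CPM, and KRT5, KRT14, KRT19, KRT20 and ESRP1 had no count. Of 8 endothelial genes, EGFL7 (38.1 ± 2.85 CPM) and ERG (8.63 ± 0.350 CPM) were expressed, and the defining PECAM1, VWF and CDH5 lay at 0.0135, 0.766 and 0.714 CPM. Of 10 neuronal genes, MAP2 (37.1 ± 3.30 CPM), TUBB3 and SYP were expressed, and SNAP25, STMN2, ELAVL3 and ELAVL4 had no count. Of 8 glial genes, 3 were expressed, among them MBP (50.2 ± 1.45 CPM) and NGFR (2.18 ± 0.294 CPM), while SOX10 and OLIG2 had no count. Of 6 melanocyte genes, MITF, a factor that mast cells and Cajal cells are also known to carry, stood at 27.5 ± 1.73 CPM, PMEL at 1.98 ± 0.113 CPM, and TYR had no count. Of 6 neuroendocrine genes, SCG2 alone was expressed, at 1.43 ± 0.0346 CPM.

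Among the lists of mesenchymal cell types, that of fibroblasts and pericytes had the highest share of expressed members. Of 12 smooth muscle genes, 7 were expressed (58.3%), which is close to the 57.5% of all protein-coding genes. CALD1 (929 ± 55.0 CPM), ACTA2 (404 ± 16.9 CPM), SMTN (188 ± 12.7 CPM) and TAGLN (111 ± 3.40 CPM) exceeded 100 CPM. Under the limit lay, among others, MYH11 at 0.230 ± 0.0516 CPM, DES at 0.00862 CPM and MYOCD, the coactivator of the smooth muscle program, at 0.570 ± 0.0903 CPM. A mean of 10 CPM was reached by 6 of the 12 genes, and the other expressed members are not named here. Of 10 fibroblast and pericyte genes, 7 were expressed (70.0%), namely LUM, THY1 (1068 ± 66.8 CPM), the pericyte gene RGS5 (576 ± 26.6 CPM), DCN, PDGFRB, S100A4 and COL1A1, whereas FAP, PDPN and COL1A2 lay under the limit. LUM, DCN, PDGFRB and the collagen chains are also in the lists above. Of 7 adipocyte genes, FABP4, a fatty acid carrier that endothelial cells and macrophages also make, reached 673, 592 and 618 CPM and PPARG 1.77 ± 0.0803 CPM, while ADIPOQ and LEP had no count. Of 9 skeletal muscle genes, TNNT1 (13.9 ± 0.721 CPM) and MYH3 (1.23 ± 0.327 CPM) were expressed, and MYOD1, MYF5, MYOG and CKM had no count. Of 8 cartilage and bone genes, RUNX2 (4.26 ± 0.201 CPM) and ACAN (5.21 ± 0.184 CPM) were expressed. Of 12 genes of mesenchymal state, 10 were, led by VIM (317 ± 22.1 TPM), FN1, TWIST2 (28.3 ± 0.733 TPM) and SNAI1 (27.1 ± 1.13 TPM).

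**Figure D4:**
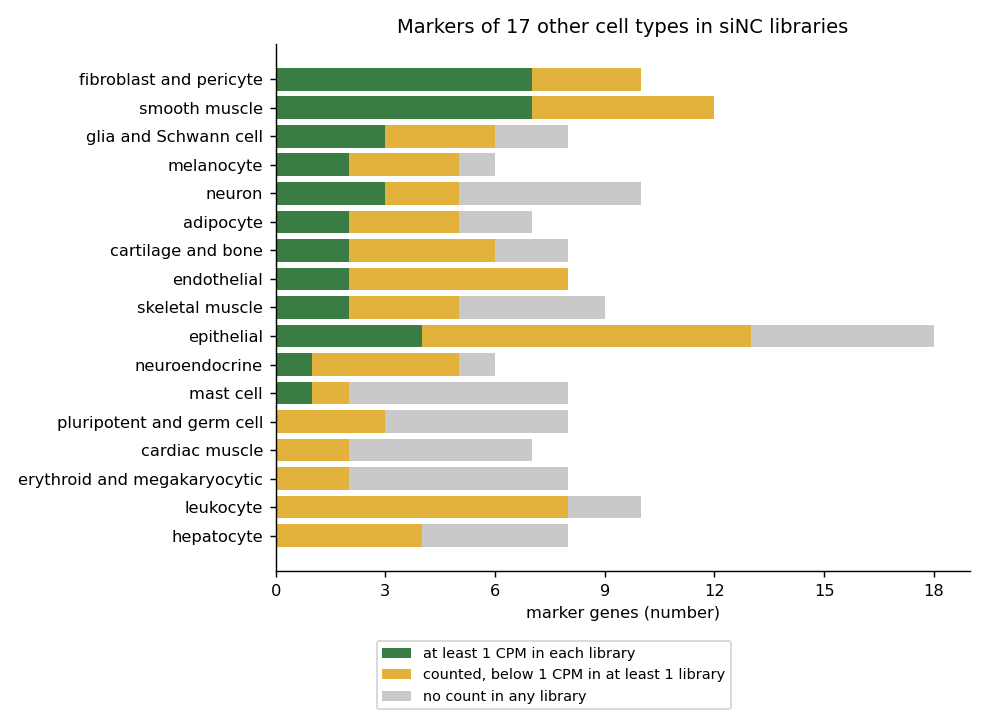
Number of marker genes of 17 other cell types, 1 bar per list, split into genes of at least 1 CPM in each siNC library (green), genes with counts that lie under that limit in at least 1 library (yellow) and genes with no count (grey). The hepatocyte, leukocyte, erythroid, cardiac and germ cell bars hold no green, and the smooth muscle and fibroblast bars hold 7 green genes each.

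The spread between libraries was small and uneven between genes. The median coefficient of variation over the expressed genes was 5.32%, and the counting error computed from the mean count had a median of 2.87%. It was 9.21% for 3841 genes from 1 to 10 CPM, 4.74% from 10 to 100 CPM, 3.54% from 100 to 1000 CPM and 3.90% above. Of 315 genes with 20% or more, 304 lay from 1 to 10 CPM. The biological coefficient of variation that edgeR estimates over all expressed genes was 0.0507, and 0.0314 without library 2. The libraries differed from each other by more than counting error, where the chi-square of the counts divided by its degrees of freedom was 11.9 for libraries 1 and 2, 8.36 for 2 and 3, and 4.47 for 1 and 3, so no library was counted as a copy of another. At most 2 genes in a pair differed by 2-fold or more.

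Among protein-coding genes of at least 10 CPM, 7 of the 12 with the largest dispersion were mitochondrially encoded. MT-ND4 stood at 703, 897 and 1064 CPM, and the median log2 deviation of the 13 mitochondrial protein genes from the mean of the libraries was -0.25, 0.04 and 0.20. FTH1, the ferritin heavy chain, stood at 667, 924 and 736 CPM and shares 63.2% of its exon bases with other genes. At the other end, SRP14, a subunit of the signal recognition particle, stood at 218, 219 and 217 CPM. Over all 8870 genes, the Pearson correlation of the deviation with the GC content of the transcript was -0.70, 0.73 and -0.30 in libraries 1 to 3 as a description across genes, which share the libraries and are not independent. In library 2 the median log2 deviation was -0.07 in the 1774 genes with the lowest GC content and 0.09 in the 1774 with the highest. The part of GC content in these differences was not tested. Among lists with at least 5 members of 10 CPM or more, the fibrillar collagens deviated by a median of 0.10 in library 3. The other collagens deviated there by 0.11, and the identity list by 0.03 at most in any library.

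**Figure D5:**
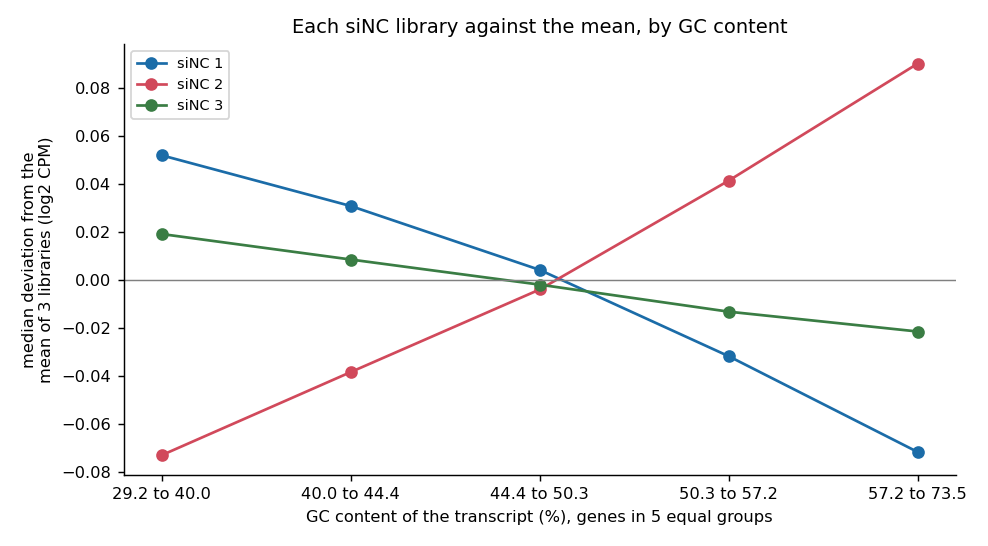
Median log2 deviation of each siNC library from the mean of the 3 libraries, by transcript GC content in 5 equal classes of 1774 genes over 8870 protein-coding genes of at least 10 CPM. Library 2 ran from -0.07 to 0.09, and library 1 from 0.05 to -0.07.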

How the data were processed

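Per the labels and the study's methods, polyA RNA of T1 cells was sequenced in paired ends, aligned to GRCh38 with STAR 2.7.3a and counted with featureCounts 2.0.1. The authors deposited raw counts per gene symbol, and for the annotation release, strand setting and multiple alignments the sources used here name no choice. Reads of genes that overlap in antisense may thus be mixed. The table's 6 columns of other libraries were not used. Columns were tied to samples by the library number in the title. CPM were computed with TMM factors over the 3 siNC libraries (edgeR 4.0.16, R 4.3.3), and TPM with the merged exon length of GENCODE release 44, which 99.8% of symbols matched. The expression limit was at least 1 CPM in each library. With 1 group there is no test between groups. The spread was described by the SD and by edgeR's dispersion, whose script was tested on simulated data. Promoters are the first listed start of each gene in RefSeq (GRCh38.p14). From 1 to 10 CPM, the counting error computed from the mean count had a median of 8.01% of the mean, against a measured 9.21%. The SD of 3 values tends to lie below the true SD, so the part of counting error in the spread was not estimated. Above 10 CPM, counting error was smaller against the measured value. Limits on values of 0 cover counting error only.

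The libraries and gene lists were chosen with earlier results of these data known. Genes were named from a pool, not all of which is printed, of KIT, ANO1, ETV1, FOXF1 and ESRRA, the 25 protein-coding genes with the highest mean CPM or TPM, the 10 highest genes of other types, the 4 highest members of each list or factor family, all members of lists of at most 8 genes, and the 12 genes with the largest and smallest dispersion. Other genes of the longer lists, and FOXC2, FOXL1, IGF2R, XCL2 and XCR1, were named after their values were seen. Values of some listed genes are not reported here.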

Additional observations from a re-analysis of the deposited data

How the results depend on the processing

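Of 61 alternative values, 57 stayed within the spread or within 1.5 times the main count and 4 did not. The number of genes expressed was 12963 by TMM, by DESeq2 size factors and by plain CPM, because the limit falls on the same whole counts. It was 14214 at 0.5 CPM, 10287 at 5 CPM, 12868 after thinning of the counts and 13041 to 13109 when a library was left out, but 29642 when a single count in any library sufficed. The 100 most abundant genes took 17.7% of the counts and 25.1% per length, and 11 of the 25 most abundant genes by CPM were among the 25 highest by TPM. The biological coefficient of variation ran from 0.0314 to 0.0652 when a library was left out, and was 0.0314 without library 2. The cause was not tested. Markers of other cell types were expressed in 36 of 150 cases, 41 at 0.5 CPM, 25 at 5 CPM, and 32 without those that share over 20% of their exon bases. That last choice, the 10302 expressed of 17071 protein-coding genes with little overlap (60.3%) and the coefficient without mitochondrial genes (0.0503) were added after the data were seen. By the longest transcript, the highest member stayed in 49 of 55 lists. Low values of overlapping, duplicated or antisense genes remain uncertain, and below the limit depth sets the precision. No paired analysis was possible because only 1 group was described.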

Other observations

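On chromosome 18 of GRCh38, neighbouring protein-coding genes had no reads or almost none. ME2 (50879080 to 50954257), a mitochondrial malic enzyme, and ELAC1 (50967991 to 50988121), a tRNA-processing enzyme, had no count in any library, and SMAD4 (51028528 to 51085045) had 8, 9 and 3 counts. MEX3C, the next gene, stood at 61.1 ± 1.30 CPM. ME2 shares none of its exon bases with other genes, ELAC1 8.51% and SMAD4 4.93%. A gene model that spans from ELAC1 into SMAD4 (ENSG00000267699, 50968019 to 51058144) also had no count, and all of its exon bases are shared. These genes were chosen after their values were seen, and the state of the DNA there was not tested.

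Some other genes were near 0 beside expressed neighbours. MYL9 had no count while TGIF2 and DLGAP4, on either side of it, stood at 50.3 and 43.1 CPM. LGALS3, the gene of galectin 3, had 2, 3 and 6 counts beside DLGAP5 (38.3 CPM). DMD had no count, nor had FTHL17 and FAM47A on either side of it, while TAB3 and TMEM47 beyond those stood at 36.8 and 14.1 CPM. COL1A2 lay at 0.242 CPM between BET1 (28.4 CPM) and CASD1 (32.1 CPM). Beyond BET1, GNG11 and TFPI2 were also near 0, at 0.00758 and 0.0462 CPM. Beyond CASD1, SGCE and PEG10 stood at 92.1 and 499 CPM.

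Genes of antigen presentation were expressed in 12 of 19 cases. The class I genes B2M (432 ± 18.1 TPM), HLA-E (189.8 ± 4.07 TPM) and HLA-C (103 ± 6.14 TPM) were among the highest. HLA genes resemble each other, and their separate levels are uncertain. The class II regulator CIITA lay at 0.432 CPM. Of 15 measured cancer-testis antigens, PRAME (77.9 ± 3.11 CPM), MAGEC2 (6.99 ± 0.395 CPM) and MAGEC1 (3.42 ± 0.136 CPM) were expressed and 7 had no count. Over the autosomes and X, the share of protein-coding genes expressed ran from 46.5% on X to 64.7% on chromosome 13.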
